A study of Homo sapiens with 4 samples.

Results

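The genes described here are those of glycolysis and of the response to low oxygen, in human embryonic stem cells with and without an intact SLC35F2 gene. The 38 members are glucose transporters, glycolytic enzymes and their regulators, lactate transporters, and the hypoxia-inducible factors (HIF) with their hydroxylases and targets, taken from a list of names. The rule holds no measured value, but the list was drawn up with earlier results of these data known. Each was found among the 60483 Ensembl identifiers of the count files, and all 38 had enough reads to be among the 19027 genes tested. RNA was sequenced from H9 cells (WA09, an established line) in 4 libraries. The libraries control 1 and control 2 came from H9 cells labelled control, and KO 1 and KO 2 came from H9 cells with SLC35F2, a solute carrier of the cell membrane, knocked out. The labels do not say how the knockout was made, whether it is 1 clone, or whether 1 culture or several stood behind a group, so the p-values reflect only how far these libraries differ, which may be technical.

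Glycolysis splits glucose into pyruvate in the cytosol and yields ATP without oxygen. Pyruvate is then reduced to lactate and exported, or enters mitochondria through pyruvate dehydrogenase. Primed human pluripotent cells are known for a high glycolytic rate. HIF-1 and HIF-2 are dimers of an oxygen-labile alpha subunit (HIF1A or EPAS1) with ARNT. With oxygen, the prolyl hydroxylases EGLN1 and EGLN3 mark the alpha subunits for degradation through VHL. Without it, the dimers bind the core letters ACGTG or GCGTG near their targets, which include many glycolytic genes, ADM, BNIP3 and NDRG1.

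Assigned reads ranged from 27824693 to 37978705 per library, of which the members took 1.73% to 2.20%. SLC35F2 RNA stood lower with the knockout (12.1 and 9.65 CPM, read counts per 1000000 reads of the scaled library) than without it (41.1 and 27.1 CPM). Of the markers of primed pluripotent cells, POU5F1, SOX2, LIN28A and DNMT3B stood above 200 CPM in each library, and NANOG lay between 19.1 and 64.7 CPM. The endoderm factor SOX17, the fibroblast genes DCN and LUM and the trophoblast hormone gene CGA had at most 0.106 CPM in any library, but other genes of these lists were present. In control 1, control 2, KO 1 and KO 2, neuroectoderm markers summed to 587, 911, 630 and 1145 CPM, mostly NES and OTX2, and trophoblast and amnion markers to 14.6, 26.7, 18.1 and 19.2 CPM, mostly KRT7. Mesoderm and endothelial markers summed to 25.2, 24.2, 11.1 and 4.88 CPM, mostly TEK. Of the 5 tested, 3 were lower in both KO libraries, as 16.3% of all genes were. Endoderm markers summed to 1.78 to 2.87 CPM.

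No member passed edgeR's quasi-likelihood test over all genes at an adjusted p of 0.05. That rule called 5 of 19027 genes (0.0263%), with 4 lower (0.0210%) and 1 higher (0.00526%) in KO. SLC35F2, the gene knocked out, was not called either (edgeR adjusted p = 0.58, 0.00124 unadjusted). At an unadjusted p under 0.05 the test placed 2 of the 38 members, ADM and EGLN1, where it placed 4.06% of all genes. ADM was lower, and EGLN1 was higher, as 1.06% of all genes were at that p. Of the members, 5 had both KO libraries below both controls, against 16.3% of all genes, and 8 had both above, against 15.8% of all genes. The members' shares, 13.2% and 21.1%, thus lay near the background. In 25 members the groups overlapped. The median log2 fold change of the members was 0.26, and that of all genes tested was 0.029.

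**Figure D1:**
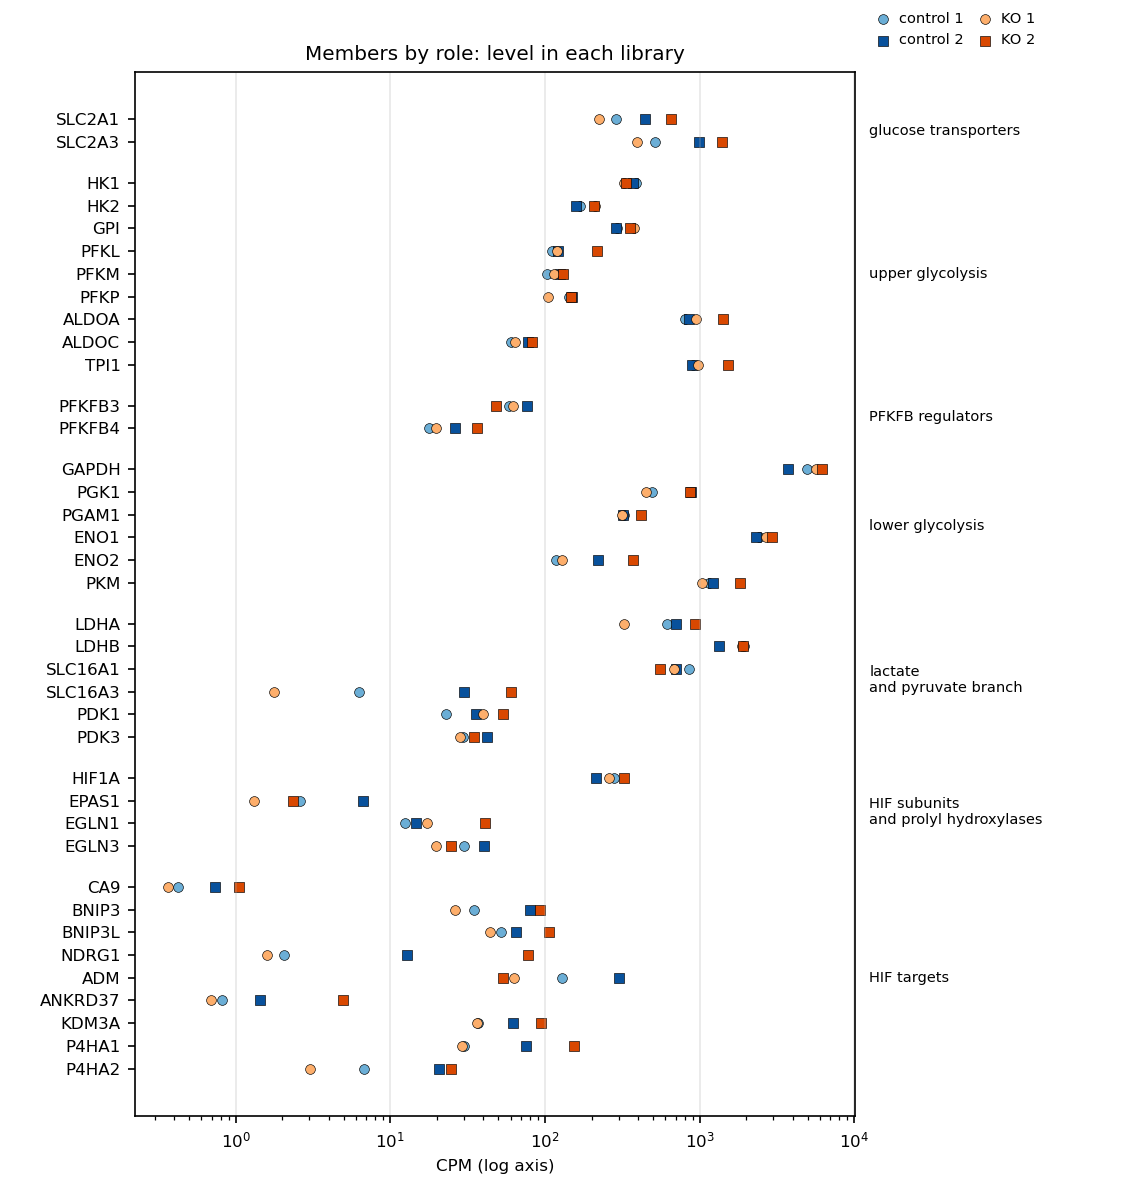
Level of each of the 38 members in each library, in CPM on a log axis, by role. Circles are the libraries numbered 1 and squares those numbered 2, in blue for control and orange for KO. ADM is lower in both KO libraries, while the other 8 HIF targets are lowest in KO 1 and highest in KO 2.

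Among the 9 members listed as HIF targets, ADM was the one gene in which the groups did not overlap. EGLN3, listed with the hydroxylases and itself known as a HIF target, was also lower in both KO libraries. EGLN1, from the same list, went the other way, with 12.5 and 14.7 CPM in the controls against 17.3 and 40.9 CPM with the knockout. Among the 25 glycolysis members, 7 had both KO libraries above both controls, and 2 had both below. Of 36 other HIF targets, 5 were lower and 4 higher in both, against 16.3% and 15.8% of all genes. ADM (GRCh38, chr11:10304680-10307397, plus strand) encodes adrenomedullin, a secreted vasodilator peptide. Control 1 held 130 CPM of it and control 2 held 301, while KO 1 and KO 2 held 63.0 and 53.6 CPM, from 4892, 10679, 1731 and 1831 reads. Both KO libraries lay below both controls, and the controls differed 2.32-fold between themselves. Averaged by group, this came to 215 ± 121 CPM for the controls and 58.3 ± 6.65 CPM for the knockout (SD, n = 2 each). The fitted log2 fold change was -1.88 ± 0.40 (SE), and its 95% interval ran from -2.80 to -0.97. ADM ranked 41st of 19027 genes, and its adjusted p in edgeR was 0.58 (0.00125 unadjusted). DESeq2 called ADM (adjusted p = 0.00859), 1 of the 52 genes it called (0.273% of those tested). In edgeR, ADM was also called when KO 1 was left out (log2 fold change -1.99) or KO 2 was (-1.77), fits that give the remaining KO library the spread of the controls. It was not called without control 1 (-2.36) or without control 2, where the value moved to -1.15.

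The sequences before the starts of 5 genes show how the HIF core letters are placed. They are ADM, the one of the 9 listed HIF targets that was low in both KO libraries, and 4 genes that were high in both libraries numbered 2. Each run holds the 250 bases before the RefSeq start (GRCh38.p14), 5′ to 3′ on the gene's strand, and capitals mark ACGTG or GCGTG on either strand, with overlapping matches joined.
ADM (chr11:10304823-10305072, plus strand): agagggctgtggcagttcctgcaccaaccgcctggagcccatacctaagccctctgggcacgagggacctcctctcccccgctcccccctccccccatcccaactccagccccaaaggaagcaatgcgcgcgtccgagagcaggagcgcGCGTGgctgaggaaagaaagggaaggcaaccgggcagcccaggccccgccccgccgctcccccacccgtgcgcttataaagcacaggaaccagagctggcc
BNIP3 (chr10:131981924-131982173, minus strand): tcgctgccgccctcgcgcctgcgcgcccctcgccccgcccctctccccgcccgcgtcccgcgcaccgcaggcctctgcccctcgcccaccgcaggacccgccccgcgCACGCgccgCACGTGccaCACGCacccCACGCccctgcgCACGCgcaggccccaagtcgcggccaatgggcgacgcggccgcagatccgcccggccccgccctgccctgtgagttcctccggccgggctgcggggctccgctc
P4HA1 (chr10:73096867-73097116, minus strand): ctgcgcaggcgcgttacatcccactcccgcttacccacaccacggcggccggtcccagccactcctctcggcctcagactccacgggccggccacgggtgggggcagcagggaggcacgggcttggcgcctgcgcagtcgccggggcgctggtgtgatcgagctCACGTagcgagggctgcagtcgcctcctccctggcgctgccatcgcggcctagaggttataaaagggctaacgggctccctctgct
ANKRD37 (chr4:185396591-185396840, plus strand): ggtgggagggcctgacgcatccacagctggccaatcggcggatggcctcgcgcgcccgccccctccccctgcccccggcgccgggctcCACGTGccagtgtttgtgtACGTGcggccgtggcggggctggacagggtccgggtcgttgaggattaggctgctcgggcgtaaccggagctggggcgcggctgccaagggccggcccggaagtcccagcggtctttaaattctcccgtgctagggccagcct
PGK1 (chrX:78103998-78104247, plus strand): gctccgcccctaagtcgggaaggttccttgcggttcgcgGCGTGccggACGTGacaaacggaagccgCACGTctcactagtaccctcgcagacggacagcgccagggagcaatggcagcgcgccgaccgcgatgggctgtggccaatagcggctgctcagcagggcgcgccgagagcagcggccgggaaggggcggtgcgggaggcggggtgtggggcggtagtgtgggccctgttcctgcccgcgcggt
ADM and P4HA1 held 1 match each, ANKRD37 2, PGK1 3 and BNIP3 5. Over windows of the same length, 43.2% of 35116 in the table and 53.2% of those of tested genes held a match. A RefSeq entry was found for 34 of the 38 members, with several starts for some. A match stood in 7 of 8 windows of HIF targets and in 27 of 49 windows of the glycolysis members (55.1%). The 8 windows belonged to 7 of the 9 HIF targets, since BNIP3L and NDRG1 had no entry. The 5 genes shown each held a match, whereas EGLN3, LDHB, P4HA2, PGAM1, PKM and SLC2A1 held 0 in any window. A match describes the letters alone.

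Immediate early genes, which growth factor and stress signals induce within minutes, were listed with feedback inhibitors of MAP kinase signals such as SPRY4. The genes of this mixed list were at their highest in control 2, as ADM was. All 16 of the 17 listed genes that were tested peaked there, against 25.8% of all genes. Their summed level was 722 and 1978 CPM in the control libraries against 635 and 643 CPM with the knockout. JUN had 25.1 and 90.6 CPM in the control libraries against 14.9 and 22.6 CPM with the knockout, and DUSP1, a phosphatase that ends MAP kinase signals, had 13.1 and 38.2 against 9.78 and 9.33 CPM. SPRY4, the most abundant of the list, had 191 and 391 against 204 and 120 CPM. No gene of the list was called by edgeR, 6 of 16 had an unadjusted p under 0.05 (4.06% of all genes did), and 7 were lower in both KO libraries (16.3% of all genes were). With a KO library left out, edgeR called JUN in both fits, and DUSP1 and SPRY4 without KO 1. The part of this signal in the ADM difference was not tested.

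The other 8 HIF targets did not separate by group, and the KO libraries stood at both ends of the range. All 8 stood in the same order from low to high, KO 1, control 1, control 2 and KO 2, an order found in 9.28% of all genes tested and noticed after the values were seen. With library size only as scaling BNIP3 left it, and 7 of the 9 targets held it. Over all 38 members the order held in 13, of which the other 5 were SLC2A1, SLC2A3, PKM, LDHA and SLC16A3. KO 1 was the lowest library and KO 2 the highest in 14 members, against 12.7% of all genes, and KO 2 was the highest in 26, against 33.4%. KO 2 was at least 2-fold above KO 1 in 14 members, against 12.9% of all genes. It was at or below 0.5 times KO 1 in 0 of 38, against 14.0% of all genes. The library numbered 2 was above the library numbered 1 in both groups in 26 members, against 30.8%. NDRG1, which encodes a stress-responsive protein, stood at 2.07 CPM in control 1 and 12.8 in control 2, and at 1.6 CPM in KO 1 and 78 in KO 2, from 78, 454, 44 and 2668 reads. The KO libraries thus lay on either side of the controls and differed 48.8-fold from each other. Its log2 fold change was 2.43 with a 95% interval from -3.07 to 7.94.

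P4HA1 and P4HA2 encode the alpha subunits of the enzymes that hydroxylate proline in collagen. P4HA1 had 30.2 and 75.5 CPM in the control libraries against 29 and 154 CPM with the knockout. P4HA2 had 6.78 and 20.7 CPM in the control libraries against 3.02 and 24.6 CPM with the knockout. KO 2 exceeded KO 1 by 5.32-fold in the one and 8.16-fold in the other, with log2 fold changes of 0.80 ± 0.80 (SE) and 0.02 ± 0.90 (SE) between the groups. ANKRD37, an ankyrin repeat gene, had 0.822 and 1.44 CPM in the control libraries against 0.691 and 4.94 CPM with the knockout (log2 fold change 1.37 ± 0.84, edgeR adjusted p = 0.997), the KO 1 value resting on 19 reads.

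BNIP3 and BNIP3L encode proteins of the outer mitochondrial membrane that take part in mitophagy. BNIP3 had 34.9 and 80.0 CPM in the control libraries against 26.1 and 92.4 CPM with the knockout. BNIP3L had 52.0 and 65.2 CPM in the control libraries against 43.9 and 106 CPM with the knockout. KDM3A, a histone H3 lysine demethylase, had 37.0 and 62.1 CPM in the control libraries against 36.5 and 93.8 CPM with the knockout, where control 1 and KO 1 nearly coincided. CA9, a membrane carbonic anhydrase widely used as a hypoxia marker, had between 0.364 and 1.05 CPM, from 10 to 36 reads. The adjusted p of these 8 targets in edgeR was 0.997 or above.

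**Figure D2:**
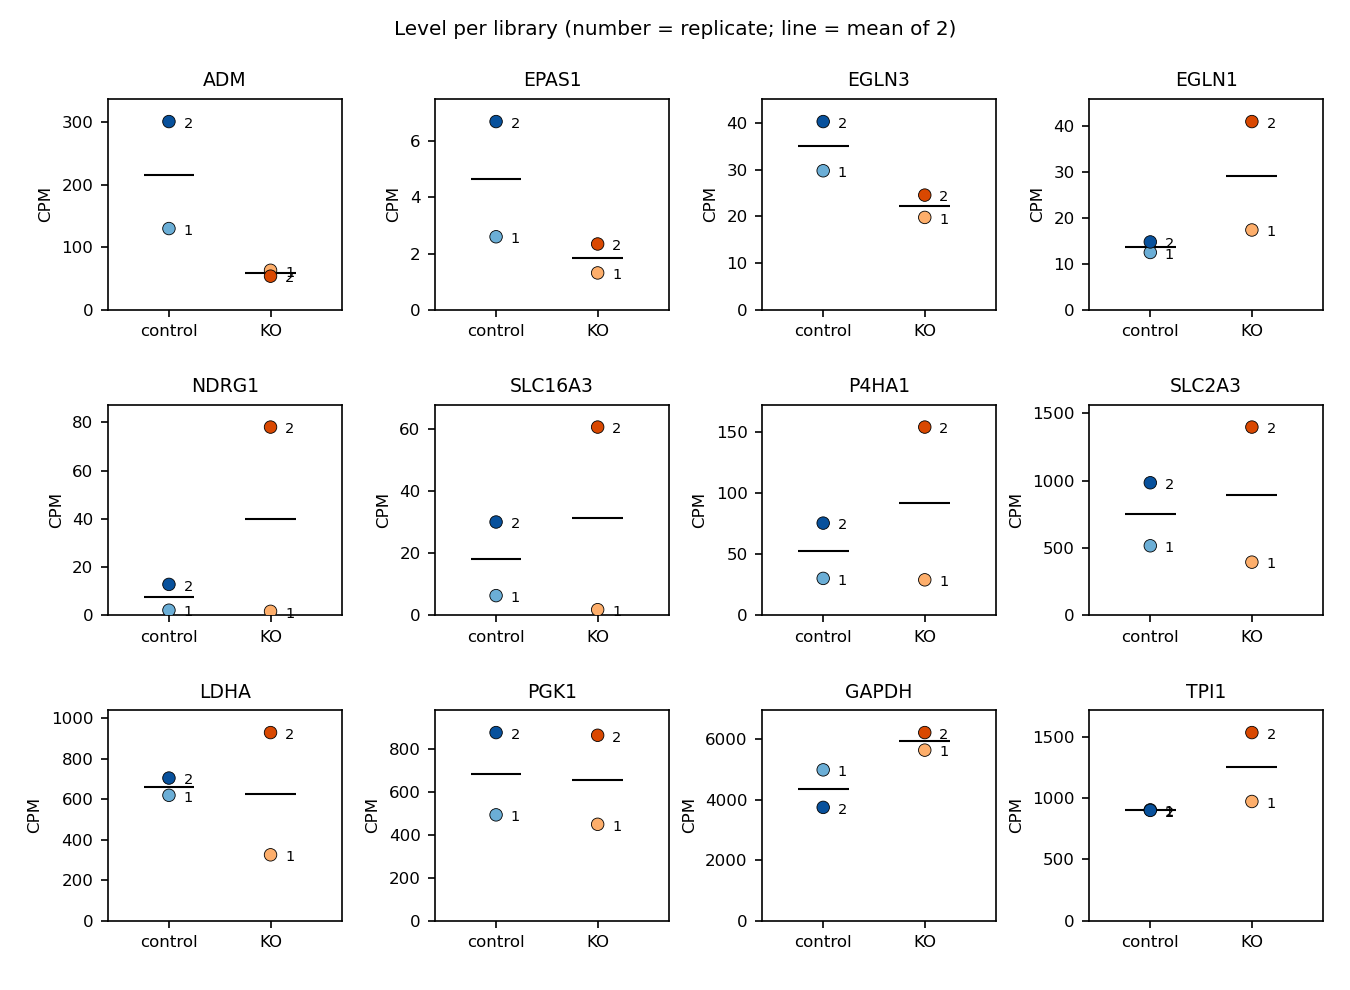
CPM per library (y axis, from 0) for 12 members. Points are libraries with their replicate number and the line is the mean of 2. ADM, EPAS1 and EGLN3 are lower in both KO libraries. In NDRG1, SLC16A3, P4HA1, SLC2A3 and LDHA the KO libraries lie on either side of the controls.

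The glucose transporters followed the same order of libraries as the HIF targets. SLC2A1 (GLUT1) stood at 288 CPM in control 1 and 440.5 in control 2, and at 225 CPM in KO 1 and 650.2 in KO 2. SLC2A3 (GLUT3), a high-affinity carrier, had 516, 985, 394 and 1399 CPM in the same sequence. KO 2 was thus 2.89-fold and 3.55-fold above KO 1, while the log2 fold changes between groups were 0.27 ± 0.47 (SE) and 0.26 ± 0.57 (SE; edgeR adjusted p = 0.997 for both). Both signs turned with quantile normalisation. Reads of SLC2A3 may be shared with its near-identical paralog SLC2A14, which had 4.66 to 18.5 CPM in the same order.

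Of the genes that handle pyruvate and lactate, LDHA and SLC16A3 also held this order. LDHA encodes the lactate dehydrogenase subunit known for favouring the formation of lactate. It had 620 and 705 CPM in the control libraries against 326 and 930 CPM with the knockout, a log2 fold change of -0.08 ± 0.44 (SE, edgeR adjusted p = 0.997). SLC16A3 (MCT4), the lactate exporter of hypoxic cells, stood at 6.31 CPM in control 1 and 30.0 in control 2, and at 1.78 CPM in KO 1 and 60.6 in KO 2. The KO libraries differed 34-fold, and the interval of the log2 fold change ran from -4.04 to 5.62.

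SLC16A1 (MCT1), the more abundant lactate carrier here, was lower in both KO libraries, with 851 and 705 CPM in the control libraries against 686 and 555 CPM with the knockout (log2 fold change -0.33 ± 0.26, edgeR adjusted p = 0.997). LDHB had 1925 and 1327 CPM in the control libraries against 1890 and 1897 CPM with the knockout. PDK1, a kinase that inhibits pyruvate dehydrogenase, was higher in both KO libraries, with 22.9 and 35.7 CPM in the control libraries against 39.5 and 53.6 CPM with the knockout. Its log2 fold change was 0.67 ± 0.33 (SE), with an adjusted p of 0.997 in edgeR. PDK3, a second such kinase, overlapped between the groups (28.1 to 42.2 CPM).

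The enzymes of the glycolytic steps showed smaller differences. Of these 15 genes, 12 had a positive log2 fold change, against 52.8% of all genes, and 10 did with library size only, where the signs of PFKM and ALDOC turned. The values ran from -0.21 to 0.56 with a median of 0.27, and none was called by edgeR. In both KO libraries 6 of them were higher than in both controls and 1 was lower, against 15.8% and 16.3% of all genes. With library size only, 5 were higher. Library size only also moved the median of all genes from 0.029 to -0.097.

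GAPDH, which oxidises glyceraldehyde 3-phosphate, was the most abundant member and was higher in both KO libraries, with 4981 and 3742 CPM in the control libraries against 5632 and 6212 CPM with the knockout. The means were 4361 ± 876 and 5922 ± 410 CPM (SD, n = 2 each), a log2 fold change of 0.44 ± 0.26 (SE, edgeR adjusted p = 0.997). ALDOA, the main aldolase, had 803 and 856 CPM in the control libraries against 950.2 and 1416 CPM with the knockout (log2 fold change 0.51 ± 0.28). TPI1, triose phosphate isomerase, had 904 and 900 CPM in the control libraries against 972 and 1534 CPM with the knockout (0.47 ± 0.29). In ALDOA and TPI1, KO 1 stood just above the controls and KO 2 well above them. Leaving out KO 2 gave log2 fold changes of 0.20 and 0.11, and leaving out KO 1 gave 0.78 for either gene.

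HK2, the hexokinase that phosphorylates glucose on entry and is inducible in many tissues, had 167 and 159 CPM in the control libraries against 209 and 207 CPM with the knockout (log2 fold change 0.35 ± 0.25). GPI, which turns glucose 6-phosphate into fructose 6-phosphate, had 294 and 290 CPM in the control libraries against 378 and 355 CPM with the knockout (0.33 ± 0.25). The libraries of a group lay close together in both genes, and the groups did not overlap. ENO1, the enolase of most tissues, was likewise higher in both KO libraries (2426 and 2299 CPM in the controls, 2671 and 2935 CPM with the knockout). HK1, the constitutive hexokinase, was lower in both, with 386 and 372 CPM in the control libraries against 325 and 332 CPM with the knockout. For HK2, GPI, ENO1 and HK1 the edgeR adjusted p was 0.997.

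In the remaining enzymes the groups overlapped. PFKL, the liver-type phosphofructokinase, had 111 and 122 CPM in the control libraries against 120 and 216 CPM with the knockout, a log2 fold change of 0.53 ± 0.32 (SE). Control 2 and KO 1 nearly coincided, and KO 2 stood above both. The value was 0.049 without KO 2 and 0.90 without KO 1. PGK1, phosphoglycerate kinase, had 493 and 877 CPM in the control libraries against 449 and 864 CPM with the knockout (-0.06 ± 0.39). In PGK1 control 2 and KO 2 nearly coincided, and control 1 and KO 1 lay below them. ENO2, the neuronal enolase, had 119 and 222 CPM in the control libraries against 129 and 373 CPM with the knockout. PKM, pyruvate kinase, had 1149 and 1230 CPM in the control libraries against 1033 and 1838 CPM with the knockout. PGAM1 (313 to 420 CPM), PFKM (102 to 131), PFKP (105 to 150) and ALDOC (60.0 to 82.7) varied less.

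The bifunctional enzymes PFKFB3 and PFKFB4 set the level of fructose 2,6-bisphosphate, an activator of phosphofructokinase. PFKFB3 had 58.5 and 77.0 CPM in the control libraries against 62.6 and 48.3 CPM with the knockout. PFKFB4 had 17.7 and 26.3 CPM in the control libraries against 19.8 and 36.1 CPM with the knockout. Their log2 fold changes were -0.29 ± 0.29 (SE) and 0.35 ± 0.38 (SE).

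Read counts per kilobase of exon allow isozymes to be compared within a library, free of the scaling between libraries. HK1 made up 69.0% and 69.3% of the hexokinase signal (HK1 and HK2) in the controls and 59.9% and 60.7% in the KO libraries. PFKP, the platelet-type phosphofructokinase, made up 52.8% and 50.4% of its family in control and 42.7% and 42.2% in KO. For HK1 and PFKP the libraries of a group lay closer together than the groups did. The shares of PFKL (22.3% and 22.1% against 26.4% and 33.3%) and PFKM (25% and 27.5% against 30.9% and 24.6%) spread more widely within the KO group, and those of PFKM overlapped. PDK1 made up 20.5% and 21.9% of the summed PDK1 and PDK3 signal in control and 31.8% and 34.0% in KO. With 2 libraries against 2, an exact two-sided permutation test of such a share cannot go below a p of 0.333, and the shares were left untested.

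P4HA1 made up 92.4% and 90.9% of the summed P4HA1 and P4HA2 signal in control and 96.3% and 94.5% in KO, without overlap. LDHB outweighed LDHA in each library, with LDHA at 13.4% and 20.3% in control and at 7.64% and 19.1% in KO. ALDOA made up 89.1% to 92.8% of the aldolase signal, ENO1 86.5% to 94.4% of the enolase signal and SLC2A3 57.4% to 63.2% of that of the 2 glucose transporters. HIF1A made up at least 97.8% of the HIF alpha signal in each library. With the longest transcript as the length, HK1 stood at 77.1% ± 0.191 (SD, n = 2) in control, and its values in KO (69.1% and 69.8%) were again lower.

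**Figure D3:**
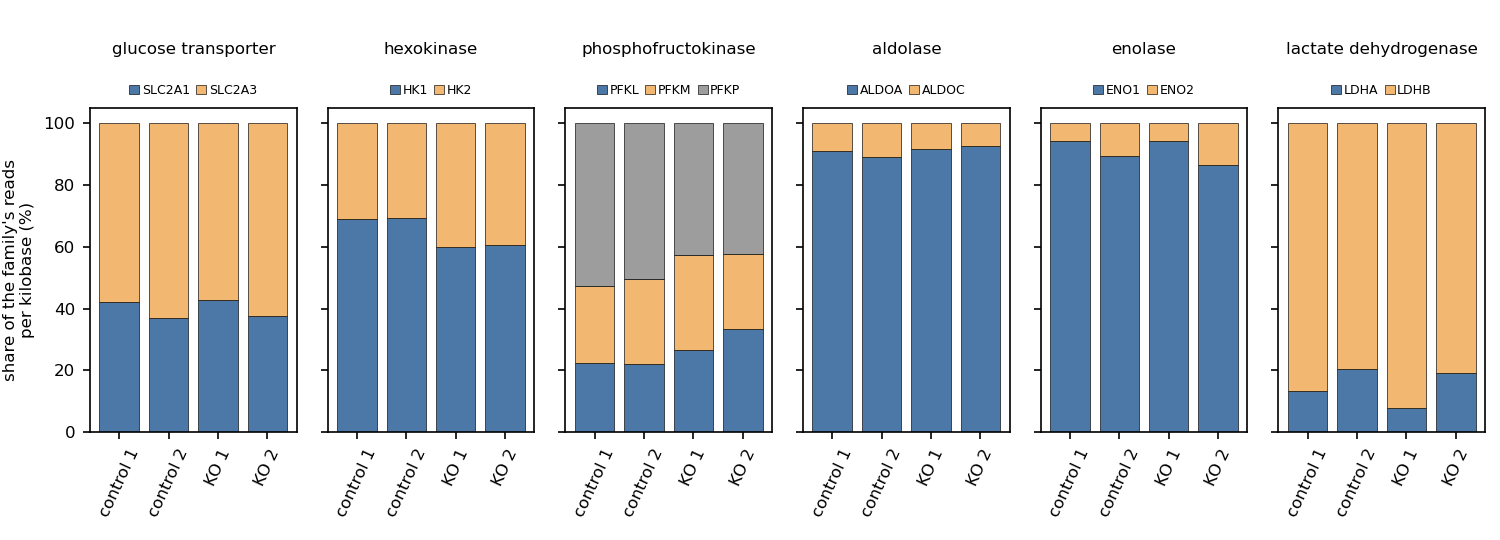
Share of each family's reads per kilobase of exon (y axis, %) in each library (x axis), for 6 families of the glucose transport and glycolytic steps. The HK1 share is 69.0% and 69.3% in the controls and 59.9% and 60.7% in the KO libraries, and LDHB outweighs LDHA in all 4.

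Of the HIF alpha subunits and their hydroxylases, EPAS1 and EGLN3 were lower and EGLN1 was higher in both KO libraries. HIF1A had 281 and 213 CPM in the control libraries against 260.2 and 325 CPM with the knockout (log2 fold change 0.24 ± 0.28, edgeR adjusted p = 0.997). EPAS1, the HIF-2 alpha subunit, was low in this line and lower in both KO libraries, with 2.6 and 6.70 CPM in the control libraries against 1.31 and 2.34 CPM with the knockout, from 98, 238, 36 and 80 reads. Its log2 fold change was -1.32 ± 0.63 (SE), with an interval from -2.74 to 0.10 and an adjusted p of 0.997 in edgeR. KO 2 lay just below control 1, and the value was -0.49 without control 2 and -1.85 without control 1.

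EGLN1 (PHD2), the main oxygen sensor of most cells, was higher in both KO libraries, with 12.5 and 14.7 CPM in the control libraries against 17.3 and 40.9 CPM with the knockout. Its log2 fold change was 1.10 ± 0.43 (SE), with an adjusted p in edgeR of 0.997 (0.0314 unadjusted), and it was 0.35 without KO 2. EGLN3 (PHD3), itself known as a HIF target, was lower in both KO libraries, with 29.8 and 40.3 CPM in the control libraries against 19.8 and 24.6 CPM with the knockout (-0.66 ± 0.32, edgeR adjusted p = 0.997). EGLN1 made up 29.8% and 27.0% of the summed EGLN1 and EGLN3 signal per kilobase in control, and 47.0% and 62.8% in KO.

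**Figure D4:**
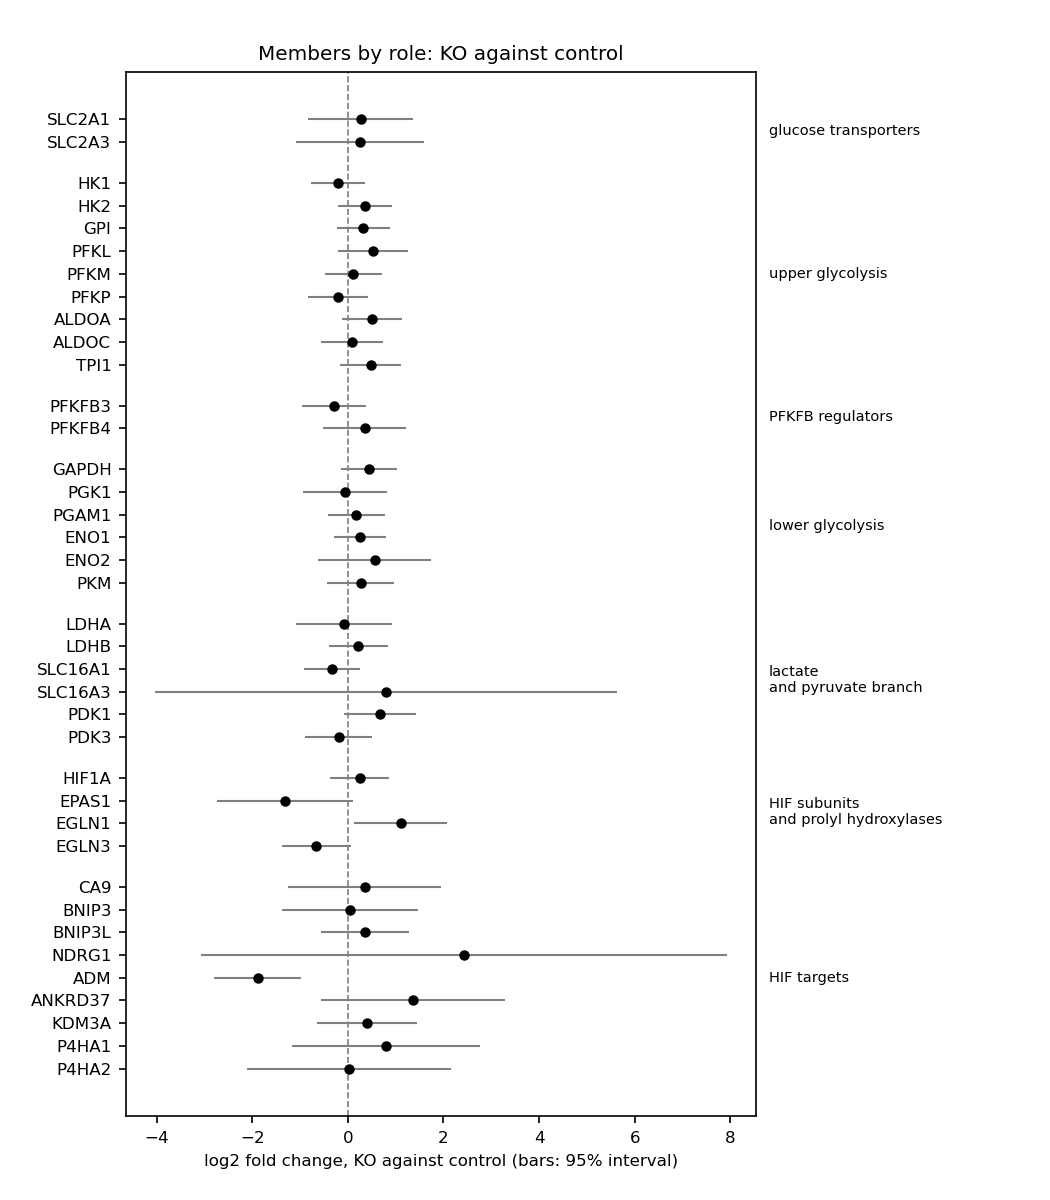
Log2 fold change of KO against control for each member, by role (x axis, points), with its 95% interval (bars). The intervals of ADM (-2.80 to -0.97) and EGLN1 (0.12 to 2.08) leave out 0, and those of NDRG1 and SLC16A3 are the widest.

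Set side by side, the glycolysis members and the HIF targets had positive medians that moved with each library left out. The 25 glycolysis members (transporters, enzymes, regulators and the pyruvate and lactate branch) had a median log2 fold change of 0.26, and the 9 HIF targets one of 0.35. Leaving out KO 2 gave medians of -0.11 and -0.86, and leaving out KO 1 gave 0.39 and 0.88. Leaving out control 1 gave 0.10 and 0.082, and leaving out control 2 gave 0.32 and 0.82. With quantile normalisation they were 0.023 and 0.19, and with library size only 0.11 and 0.22. Averaged as log2 differences from the mean of the controls, the 8 HIF targets other than ADM stood at -0.53 in control 1 and 0.53 in control 2, with -0.82 for KO 1 and 1.42 for KO 2. The 15 enzymes stood at -0.07, 0.07, -0.016 and 0.45 in the same sequence, and ADM at -0.61, 0.61, -1.64 and -1.87. KO 2 was therefore the highest library for both groups of genes and the lowest for ADM, and the enzymes spanned a narrower range.

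Single members turned with the library that was left out. Without KO 1, edgeR called 7 members (NDRG1, ENO2, P4HA1, EGLN1, SLC16A3, ADM and ANKRD37), where it called 5.31% of all genes, 1096 in number. Without KO 2 it called 4 (P4HA2, NDRG1, SLC16A3 and ADM), where it called 0.927% of all genes. NDRG1 had a log2 fold change of 3.42 without KO 1 and of -2.20 without KO 2, and SLC16A3 had 1.76 and -3.34. ADM kept its sign, with -1.99 without KO 1 and -1.77 without KO 2. Both fits hold the same controls, and the KO libraries lay close together in ADM, so the fits are not independent.

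Other measures also set KO 2 apart from KO 1. Mitochondrially encoded genes took 8.97% of its assigned reads against 5.15% in KO 1, and 14.4% of its counted entries were given to no gene against 16.7%. NANOG had 19.1 CPM there and 46.2 in KO 1, and the 6 pluripotency markers summed to 4556 and 6256 CPM. Fibroblast markers, of which 5 of 7 were tested, summed to 554 and 899 CPM without the knockout, 579 CPM in KO 1 and 1129 in KO 2, with COL1A1 at 46.8 CPM in the former and 552 in the latter, and with DCN and LUM at or near 0. Of the 5, COL1A1 and COL1A2 stood in the library order of the HIF targets, which 9.28% of all genes held, while COL3A1, PDGFRB and THY1 did not. None of the 5 was lower or higher in both KO libraries. The part of these measures in the members' values was not tested, and in bulk RNA fewer cells of a type and less RNA per cell cannot be told apart.

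**Figure D5:**
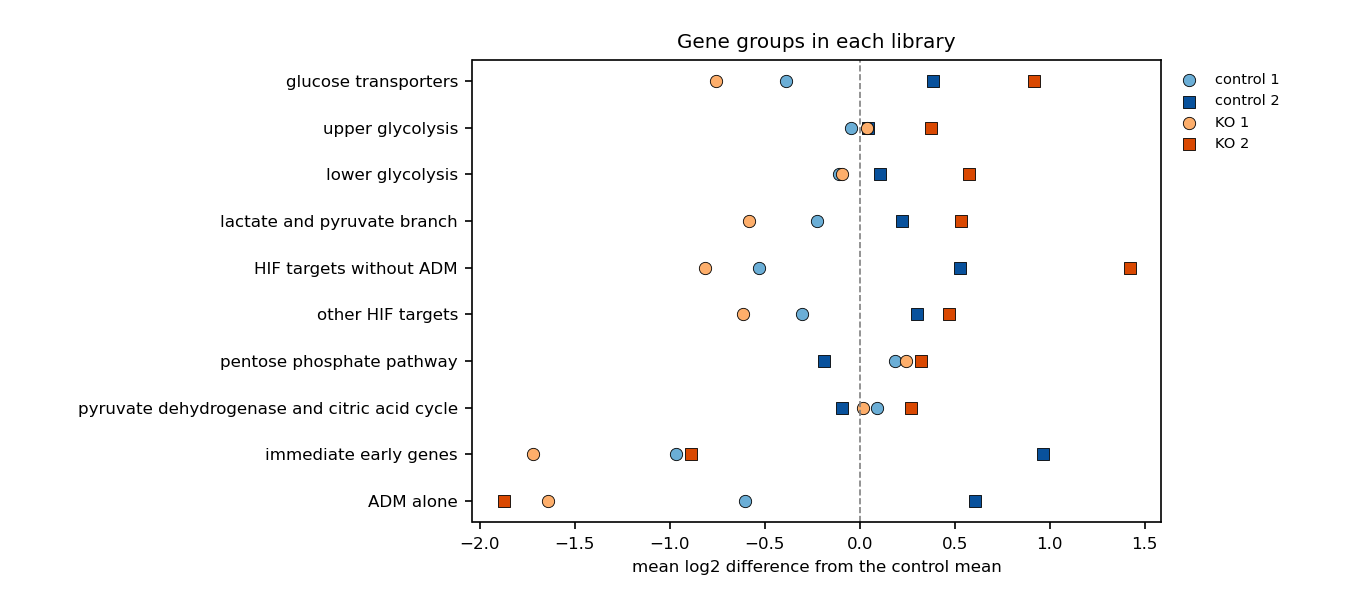
Mean log2 difference from the control mean (x axis) of each gene group and of ADM, one point per library. The HIF targets without ADM run from -0.82 in KO 1 to 1.42 in KO 2. The list labelled immediate early genes, which also holds feedback inhibitors, peaks in control 2, and ADM is lowest in KO 2.

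Neighbouring parts of carbon metabolism gave no call. The counts that follow stand beside 15.8% of all genes higher and 16.3% lower in both KO libraries, and 52.8% with a positive log2 fold change. Of the 9 genes of the pentose phosphate pathway, which makes NADPH and ribose, 4 were higher and 0 were lower in both KO libraries, and 8 had a positive log2 fold change (median 0.34). PGLS had 27.4 and 26.1 CPM in the control libraries against 33.2 and 48.8 CPM with the knockout. TKT, transketolase, had 1059 and 1035 against 1249 and 1397 CPM. Of the 25 genes of pyruvate dehydrogenase and the citric acid cycle, 7 were higher and 1 was lower in both KO libraries (median 0.17). OGDH had 128 and 89.4 CPM in the control libraries against 161 and 185 CPM with the knockout (log2 fold change 0.67 ± 0.28). The phosphatase gene PDP1 had 23.6 and 53.2 against 16.0 and 27.1 CPM, and MDH2 had 238 and 207 against 223 and 284 CPM. In edgeR no gene of either list was called, and at an unadjusted p under 0.05 stood 0 of the former and 1 of the latter.

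Of the other isozymes and carriers of glucose use, 25 of 31 were tested, and 3 were higher and 2 lower in both KO libraries (median 0.065). TXNIP, an inhibitor of glucose uptake, had 38.6 and 148 CPM in the control libraries against 29.6 and 52.4 CPM with the knockout. PDK2 had 9.43 and 8.81 against 10.1 and 19.1 CPM, and BSG, the chaperone of the lactate carriers, had 756 and 602 against 748 and 1134 CPM. Of the 12 other components of the HIF pathway, 3 were higher and 0 were lower in both KO libraries. The coactivator gene CREBBP had 102 and 73.6 CPM in the control libraries against 160.2 and 106 CPM with the knockout, ELOB of the VHL ligase had 145 and 122 against 172 and 185 CPM, and EP300 had 191 and 208 against 239 and 184 CPM. No gene of these lists was called by edgeR, and 0 of either list had an unadjusted p under 0.05.

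The list of 36 other HIF targets had 4 genes higher and 5 lower in both KO libraries, with a median log2 fold change of 0.02 and no call in edgeR (2 genes with an unadjusted p under 0.05). STC1, a secreted glycoprotein gene, was lower in both, with 40.5 and 57.1 CPM in the control libraries against 23.2 and 28.8 CPM with the knockout (log2 fold change -0.91 ± 0.31, edgeR adjusted p = 0.997). GYS1, glycogen synthase, was higher in both, with 47.0 and 41.8 against 54.4 and 94.3 CPM. The most abundant of the list, KDM5B, had 204 and 234 against 212 and 395 CPM.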

How the data were processed

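RNA was measured in 2 control and 2 KO libraries of H9 cells, grouped by the sample titles. The library kit was one for stranded mRNA, per the labels' protocols. The submitters' processing notes name STAR 2.6.0a, HTSeq 0.11.0, cutadapt 1.8.1, FastQC 0.11.7 and the build GRCh38. Neither the annotation release nor the strand setting is stated in those sources. The authors deposited raw counts, which are whole numbers of reads for each gene. The labels' protocols name quantile normalisation, which unequal totals do not carry. Reads given to no gene (14.4% to 20.3% of the counted entries) were left out.

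Names, positions and merged exon lengths came from GENCODE 29, which matched 56753 of 60483 identifiers without version. Promoter sequences came from RefSeq (GRCh38.p14). In GENCODE 29, 23 of the 38 members overlap an exon of another gene, so some reads may not be fully separated. The overlap is on the other strand in 18 and on the same strand in 9, with some in both. Those 9, which strand does not separate, are SLC2A1, GPI, PFKP, ALDOA, PFKFB4, PGK1, LDHB, SLC16A3 and HIF1A. Pseudogenes named after GAPDH (62 of them) held at most 0.172% as many reads as GAPDH, and those named after BNIP3 (39) at most 16.7% as many as BNIP3, so the count of BNIP3 is uncertain.

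Genes were filtered with filterByExpr (minimum count 10), scaled by TMM and tested with edgeR 4.0.16 (robust quasi-likelihood fit, two-sided) in R 4.3.3. Adjustment was by Benjamini and Hochberg over 19027 genes. SE is the log2 fold change over the square root of F. List means use log2(CPM + 0.5). The replicate number was not a term. Control 1 and control 2 differed beyond counting noise, as did KO 1 and KO 2 (chi-square per degree of freedom 36.2 and 77.1).

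Alternatives were RLE, upper-quartile and no factors, other filters, DESeq2 1.42.0, limma 3.58.1 (voom, and quantile normalisation with trend), the legacy fit, a replicate block and each library left out. All members are given. In full stand ADM, HIF1A, EPAS1, GAPDH, PGK1, LDHA, SLC2A1, SLC2A3 and the 10 others with the smallest p. From each other list, the 2 genes with the smallest p and the most abundant are named, except 1 that is not reported here. Members and lists were chosen with earlier results of these data known. The order of the libraries was noticed after the values were seen.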

Additional observations from a re-analysis of the deposited data

How the results depend on the processing

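Of the 38 members none was called in 10 of the 14 alternatives, and with 2 libraries per group single libraries set many values. CA9 was not tested with a mean CPM of at least 1. With quantile normalisation the log2 fold changes were -0.018 for SLC2A1, -0.15 for SLC2A3, -0.019 for ALDOC, -0.37 for SLC16A3, -0.20 for BNIP3, -0.42 for P4HA2 and -0.054 for EP300. With library size only they were -0.019 for PFKM, -0.051 for ALDOC, -0.13 for BNIP3, -0.17 for P4HA2 and -0.045 for EP300. With limma-voom they were -0.24 for SLC16A3, -0.078 for BNIP3 and -0.36 for P4HA2. Upper-quartile factors gave -0.053 for BNIP3, -0.081 for P4HA2 and -0.0073 for EP300, and a mean CPM of at least 1 gave -0.0068 for BNIP3 and -0.034 for P4HA2. The cause was not tested.

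Over all genes 5 were called. Upper-quartile factors, library size only, limma-voom and a mean CPM of at least 1 called 0 genes (801, 787, 692 and 523 with an unadjusted p under 0.05). The legacy fit and quantile normalisation called 1, no filter called 8 and DESeq2 called 52. DESeq2 called 1 member.

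The replicate numbers are not stated to mark a shared culture or day. Deviations of control 1 and KO 1 from their group means correlated with r = 0.37 across 19027 genes. With the replicate block edgeR called 76 genes (0.399%) and 1 member, ADM (adjusted p = 0.0215). JUN was also called (adjusted p = 0.0497), and the values were -0.18 for SLC16A3, -0.10 for BNIP3 and -0.38 for P4HA2.

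Leaving out each library in turn called 3 to 1096 genes and 0 to 7 members. Members with every remaining KO value below every remaining control numbered 6 without KO 1 and 22 without KO 2. Those with every KO value above numbered 30 and 8. Leaving out control 1 gave 9 below and 10 above, and leaving out control 2 gave 6 and 13. Fewer libraries have to separate in each of these fits, and no share of all genes is given beside the counts. They therefore cannot show whether members separated more often than other genes did. Why the counts differ between the fits was not tested. The HIF target median ran from -0.862 to 0.883. The log2 fold changes ran from -0.69 to 0.85 for SLC2A1, -0.93 to 0.91 for SLC2A3, -0.0061 to 0.26 for PFKM, -0.48 to 0.030 for PFKP, -0.10 to 0.29 for ALDOC and -0.15 to 0.73 for PFKFB4. They ran from -0.61 to 0.41 for PGK1, -0.045 to 0.39 for PGAM1, -0.40 to 1.15 for ENO2, -0.20 to 0.64 for PKM, -1.02 to 0.50 for LDHA, -0.024 to 0.52 for LDHB, -3.34 to 2.31 for SLC16A3 and -0.42 to 0.081 for PDK3. For the HIF targets they ran from -0.65 to 0.88 for CA9, -1.13 to 0.77 for BNIP3, -0.41 to 0.87 for BNIP3L, -2.20 to 4.27 for NDRG1, -0.70 to 2.15 for ANKRD37, -0.44 to 0.94 for KDM3A, -0.86 to 1.6 for P4HA1 and -2.18 to 1.03 for P4HA2. TXNIP ran from -1.84 to 0.087, EP300 from -0.11 to 0.26 and KDM5B from -0.046 to 0.86.

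With the longest transcript as the length, the control share moved from 69.1% to 77.1% for HK1, 30.9% to 22.9% for HK2, 22.2% to 18.6% for PFKL and 26.3% to 30.4% for PFKM. That of EGLN1 moved from 28.4% to 13.6% of the EGLN1 and EGLN3 signal. That of P4HA1 moved from 91.7% to 82.5% of the P4HA1 and P4HA2 signal.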

Other observations

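Among the 36 other HIF targets, some held the order of libraries seen in NDRG1, some peaked in control 2 as ADM did, and the rest did neither. Both patterns were noticed after the values were seen. The order KO 1, control 1, control 2, KO 2 held in 10 of them (27.8%, against 9.28% of all genes), in 11 with upper-quartile factors and in 9 with library size only. DDIT4, an inhibitor of mTORC1 signalling, stood at 15.9 CPM in control 1 and 60.9 in control 2, and at 11.2 CPM in KO 1 and 188 in KO 2. MXI1, GBE1 and FAM162A held the same order.

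Control 2 was the highest library in 13 of the 36, against 25.8% of all genes. VEGFA, the endothelial growth factor gene, had 36.3 and 107 CPM in the control libraries against 36.2 and 55.8 CPM with the knockout. STC2 had 28.1 and 116 CPM in the control libraries against 32.5 and 65.1 CPM with the knockout. In both genes the groups overlapped, unlike in ADM and STC1.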
